A study of Mus musculus with 10 samples.

Results

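Mouse prostate cancer organoids carrying floxed Ezh2 alleles were treated with 1 µM Tamoxifen or with ethanol (EtOH) and compared across 11014 genes. These were the genes of 24043 in the deposited table whose mean over the 4 libraries was at least 1 RPKM, a read density scaled to transcript length and library size, after symbols turned into dates and the short RNA families MIR, SNORA and SNORD were left out. The 4 libraries, 2 per group, belong to a series of 10, of which the other 6 come from organoids of the same genotype treated with DZNep or DMSO. Every organoid in both experiments came from the dorsal-lateral prostate lobe of C57BL/6 mice of 8 weeks, overexpressed cMYC, and carried the floxed Ezh2 alleles together with PSA-CreERT2, and all were grown with 10 nM R1881, a synthetic androgen. RNA was collected 3 days after treatment. The EtOH controls therefore carried every transgene and floxed allele that the Tamoxifen organoids carried. No group given Tamoxifen without Cre is among the samples, so effects of Tamoxifen itself and of Cre activity cannot be told apart from those of Ezh2 deletion. Nothing in the labels says that the libraries of a group were separate cultures or animals, so the p-values cover only the spread among these 4 libraries, which could be technical.

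EZH2 is the catalytic subunit of Polycomb repressive complex 2 (PRC2), which methylates a lysine of histone H3 and keeps many developmental genes silent. CreERT2 is a recombinase fused to a mutated estrogen receptor domain: Tamoxifen moves it into the nucleus, where it cuts out DNA between loxP sites. The PSA promoter is active in androgen-responsive luminal cells, which limits the model: cells in which the promoter is silent keep the floxed gene. Interferon-stimulated genes are switched on through STAT and IRF factors after sensing of foreign or misplaced nucleic acid, and cornified envelope genes encode the cross-linked proteins of squamous epithelium.

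EZH2 itself, the targeted gene, was listed at 27.9 and 34.0 RPKM in the EtOH libraries and at 32.0 and 33.2 RPKM with Tamoxifen. The groups overlapped. The log2 difference was 0.08 (SE 0.09, limma adjusted p = 0.606, exact two-sided permutation p = 1, where 2 against 2 libraries cannot go below 0.333). Leaving out EtOH 1 turned the sign, to -0.058, and leaving out EtOH 2 gave 0.21, with a limma adjusted p of 0.0345. The deposited value covers the whole gene and includes exons outside a floxed stretch, so it does not measure recombination directly, and the library labels rest on the submitters alone.

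PRC2 subunits were not called. Of the 12 tested members, EZH2 included, 0 were called in either direction by limma, against 6.16% of all tested genes called (679 of 11014), and 2 passed an unadjusted p of 0.05, 1 in each direction. EED, the subunit that binds the methylated histone, was at 21.7 and 22.1 RPKM with EtOH and at 21.4 and 21.3 RPKM with Tamoxifen. SUZ12, a core scaffold, was at 23.5 and 25.5 against 23 and 23.1 RPKM, and EZH1, the paralog that can also catalyse the methylation, at 16 and 14.7 against 16.9 and 15.6 RPKM. Neither differed past the threshold. Of the 20 tested subunits of PRC1, the complex that reads the PRC2 mark, 2 fell. BMI1 went from 14.4 and 16 RPKM to 11 and 11 (log2 difference -0.43, SE 0.07, limma adjusted p = 0.0193), and RNF2, the ubiquitin ligase of the complex, from 19.6 and 18.4 to 14.3 and 14.2 RPKM (log2 difference -0.39, adjusted p = 0.0177). Both calls were lost when either Tamoxifen library was left out and after correction for transcript GC content.

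Developmental regulators that PRC2 is known to repress were called in both directions, with HOXA6 the only rise. Of 104 on the list, 63 lay below 1 RPKM and 41 were tested, of which 1 rose and 3 fell, beside 2.54% higher and 3.62% lower over all tested genes. HOXA6 rose from 1.61 and 2.23 to 3.12 and 3.09 RPKM (log2 difference 0.50, adjusted p = 0.0463). SOX2, a stem cell factor, fell from 18.9 and 19.7 to 14.3 and 14.4 RPKM, and HOXA9 from 30.3 and 29 to 22.8 and 21.6 RPKM. SOX7 was at 1.91 and 1.92 with EtOH and at 1.19 and 1.21 RPKM with Tamoxifen, and it was called lower. The median difference of the 41 was -0.08, against 0.04 over all tested genes. After correction for transcript GC content 0 members rose and 5 fell. With the short RNA families kept 0 rose and 2 fell, so the HOXA6 call was lost under both. Without Tamoxifen 2, 0 members were called, without Tamoxifen 1 only 1, lower, and without EtOH 2 the counts were 3 higher and 8 lower.

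Over all genes, 280 were higher with Tamoxifen and 399 were lower (2.54% and 3.62% of those tested), at a limma adjusted p under 0.05, and 3048 had an unadjusted p under 0.05. The differences of the called genes were mostly small, with a median size of 0.40 on the log2(RPKM + 1) scale. That scale understates the change of genes near 1 RPKM. Among called genes, only 6 rose and 19 fell by at least 1 on it. The 2 Tamoxifen libraries were both above the 2 EtOH libraries for 36.8% of genes and both below for 23.4%. Of the called genes, 0 had groups that overlapped, so separate groups add no support to a call. The 4 libraries listed 15021 to 15153 genes above 0. The largest principal component held 67.3% of the variance and placed EtOH 1 at -16.8, EtOH 2 at -5.22, Tamoxifen 1 at 8.82 and Tamoxifen 2 at 13.2. The number of calls depended on single libraries: it was 1201 without EtOH 1, 2823 without EtOH 2, 276 without Tamoxifen 1 and 137 without Tamoxifen 2. It was 230 with the 109 short RNA rows kept and 0 with no filter on low values, where 3247 genes had an unadjusted p under 0.05, and trimmed mean scaling gave 234 higher and 555 lower.

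The difference moved with transcript GC content. The genes were split into 4 groups of equal size by GC content. In the lowest group (33.0 to 45.5%) the median log2 difference was -0.08, with 12 genes called higher and 267 lower. In the other groups, in order of rising GC content, the medians were 0.04, 0.08 and 0.09, and the called genes were 54, 99 and 106 higher against 39, 46 and 28 lower. Of the called-lower genes with a GC value, 70.3% lay in the lowest group, and of the called-higher genes 4.43%. Across genes, which are not independent replicates, the Spearman correlation of GC content was 0.41 with Tamoxifen minus EtOH, and between -0.06 and -0.11 with the difference between libraries of the same group. After a correction for GC content, chosen after seeing the data, 326 genes were called, 121 higher and 205 lower, and 287 of the 679 calls were kept. Counts under that correction are given beside most of the gene groups that follow.

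**Figure D1:**
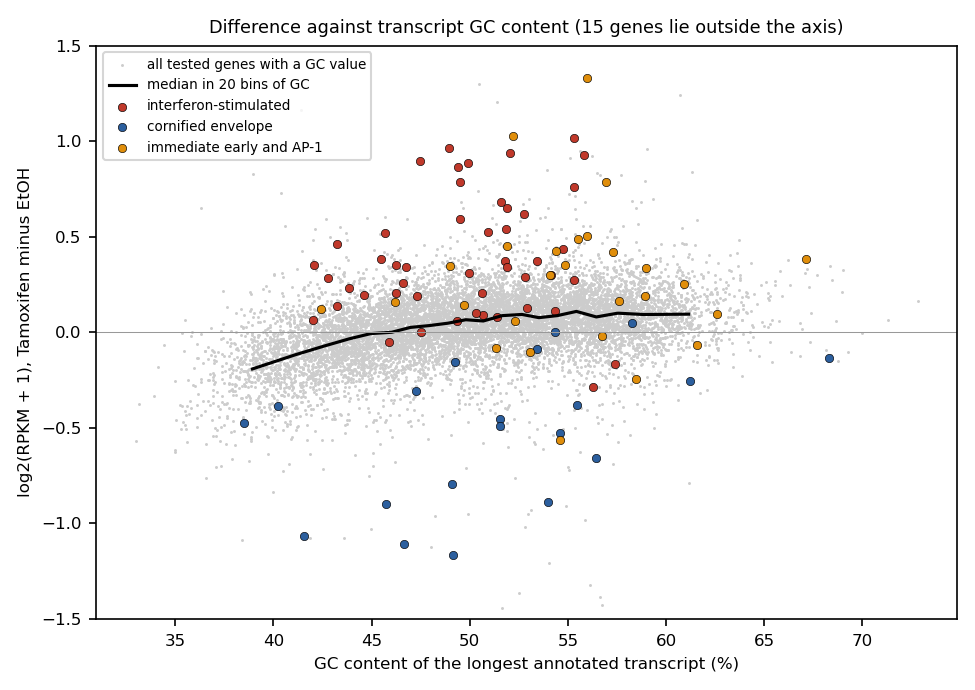
Log2 difference (Tamoxifen minus EtOH) of each tested gene against the GC content of its longest annotated transcript in percent, with the median in 20 bins and 3 gene lists in colour; 15 genes lie outside the axis. The median runs from below 0 in the lowest GC group (-0.08) to above 0 in the highest (0.09), and the interferon-stimulated and cornified envelope genes lie on either side of it across a wide range of GC content.

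Interferon-stimulated genes rose. Of 70 on the list, 21 lay below 1 RPKM and 49 were tested: 26 were called higher and 0 lower, against 2.54% of all tested genes called higher. Their median log2 difference was 0.34, against 0.04 over all genes, and 39 of the 49 had both Tamoxifen libraries above both EtOH libraries, against 36.8% of all genes.

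Promoter sequences of called members are shown because the genes of this list share a DNA element. The interferon-stimulated response element was searched as the letters GAAA, any 2 bases and GAAA again. The search covered both strands of the 250 bases before the RefSeq gene start. The element was present in 12 of the 40 tested members with a promoter entry (30%) and in 10 of the 22 called ones (45.5%). Of all 8363 tested genes with an entry, 2.91% held it. Capitals mark the letters matched, and overlapping matches run together. The sequences are RefSeq, build GRCm38.p6, each written 5′ to 3′ on the strand of its gene, and are not coordinates of the mm9 build the submitters name.
ISG15, chr4:156200845-156200926, minus strand: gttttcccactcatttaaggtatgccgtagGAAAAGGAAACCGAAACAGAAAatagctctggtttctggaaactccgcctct
OAS1A, chr5:120907526-120907575, minus strand: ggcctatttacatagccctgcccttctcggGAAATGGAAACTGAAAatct
CXCL10, chr5:92349063-92349132, minus strand: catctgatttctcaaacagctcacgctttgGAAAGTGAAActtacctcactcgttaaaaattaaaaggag
IGTP, chr11:58199492-58199555, plus strand: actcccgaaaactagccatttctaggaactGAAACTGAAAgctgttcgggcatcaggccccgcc
IFIT1, chr19:34640755-34640843, plus strand: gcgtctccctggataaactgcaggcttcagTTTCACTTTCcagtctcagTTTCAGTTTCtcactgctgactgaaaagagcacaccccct
In ISG15 there were 3 overlapping matches and in OAS1A 2, while in IFIT1 the 2 matches lie in the reverse orientation. CXCL10 and IGTP hold 1 match each. A match is a description of the letters and not evidence of binding.

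BST2, the membrane tether that holds budding virus particles, was at 9.76 and 10.8 RPKM with EtOH and at 19.6 and 24.3 RPKM with Tamoxifen (log2 difference 1.02, SE 0.10, adjusted p = 0.00579). OAS1A, an oligoadenylate synthetase activated by double-stranded RNA, went from 3.51 and 3.96 to 7.36 and 8.77 RPKM (0.94, SE 0.09, adjusted p = 0.00579). RTP4, a chaperone of receptors that interferon induces, went from 1.14 and 1.28 to 2.76 and 3.93 RPKM (0.96, SE 0.13, adjusted p = 0.0123). In all 3 the groups were clear of each other, with Tamoxifen 2 the higher library. LGALS3BP, a secreted glycoprotein, rose from 19.96 and 17.8 to 34.3 and 39.3 RPKM. XAF1, which promotes cell death, rose from 0.912 and 0.935 to 2.27 and 2.90 RPKM, and ISG15, a ubiquitin-like modifier, from 2.38 and 2.22 to 3.78 and 4.37 RPKM. The transcription factors of the pathway were among the called genes. IRF7 went from 5.26 and 5.85 to 9.97 and 10.2 RPKM, IRF9 from 11.8 and 10.4 to 17.7 and 18.3, and STAT2 from 4.15 and 4.53 to 5.67 and 5.84 (these 3 were chosen after their values were seen). IFITM3, which blocks virus entry at membranes, was the most abundant called gene, at 1867 and 1793 RPKM with EtOH and 2265 and 2483 with Tamoxifen (log2 difference 0.37, adjusted p = 0.0479). The IFITM3 call was lost after the GC correction (limma adjusted p = 0.0943) and with the short RNA rows kept (limma adjusted p = 0.085). The median GC content of the list was 50.1%, and after the GC correction 18 members were called higher. Without Tamoxifen 1 the count was 17, without Tamoxifen 2 it was 11, and with the short RNA rows kept it was 12.

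Lists next to the interferon response held fewer calls, also upward. Of 23 tested genes of MHC class I presentation, which carries peptides to the cell surface, 5 rose and 0 fell, beside 2.54% higher over all tested genes, the share that also stands behind the other lists here. H2-Q4, a class I heavy chain, rose from 11.4 and 11.9 to 18.2 and 17.0 RPKM (0.56, SE 0.06, adjusted p = 0.00848), PSMB10, an immunoproteasome subunit, from 10.4 and 10.3 to 13.6 and 14.4, and the proteasome activators PSME1 from 94.5 and 99.8 to 124 and 129 and PSME2 from 97.6 and 106 to 130 and 136 RPKM. H2 genes are near-identical copies of each other, so reads may be split among them. Of 25 tested genes that sense nucleic acid, as double-stranded RNA or as DNA in the cytosol, 2 rose: ADAR, which edits double-stranded RNA, from 8.94 and 9.74 to 11.6 and 13.2 RPKM, and the kinase IKBKE from 16.6 and 16.8 to 21.1 and 21.7 RPKM. Of 13 tested checkpoint ligands and T cell chemokines, 4 rose. These were CXCL10, a chemokine that draws T cells (1.64 and 2.19 to 4.03 and 4.69 RPKM, 0.88, SE 0.11, adjusted p = 0.0111), LGALS9 (3.49 and 3.96 to 5.11 and 6.71 RPKM), the adhesion molecule ICAM1 (10.1 and 10.3 to 14.3 and 15.6 RPKM) and PVRL2 (49.4 and 49.1 to 63.0 and 61.4 RPKM). CXCL10, LGALS9 and ADAR are also on the interferon list. Without Tamoxifen 2 the 3 lists held 1, 0 and 2 calls, without Tamoxifen 1 they held 2, 1 and 4, and after the GC correction 5, 0 and 2. Without EtOH 2, 16 MHC class I genes were called higher and 1 lower.

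Of 34 tested genes of the NF-kB and TNF response, 9 rose and 0 fell, against 2.54% higher over all tested genes, with a median log2 difference of 0.27 against 0.04. CSF3, the granulocyte growth factor, rose from 9.82 and 10.6 to 17.9 and 19.6 RPKM (0.82, SE 0.07, adjusted p = 0.00448). LIF, a cytokine of the IL-6 family, rose from 15.6 and 13.6 to 22.9 and 25.7 RPKM (0.70, SE 0.09, adjusted p = 0.0108), and LCN2, an iron-sequestering secreted protein, from 144 and 141 to 210 and 239 RPKM. The levels of both groups were apart in each of these genes. In the IL-1 family and inflammasome list, 2 of 10 tested members fell and 2 rose, the same counts as after the GC correction. IL33, an alarmin, fell from 183 and 187 to 111 and 114 RPKM (-0.71, SE 0.06, adjusted p = 0.00448). IL18, a cytokine matured by inflammasomes, fell from 6.30 and 7.07 to 3.83 and 3.62 RPKM (-0.70, SE 0.08, adjusted p = 0.00714). CASP4, the caspase that senses bacterial lipopolysaccharide, was called higher, at 11.8 and 9.25 against 15.0 and 15.1 RPKM, as was GSDMD, the pore-forming protein it cleaves, at 8.61 and 7.95 against 11.6 and 11.3 RPKM. The NF-kB count was 16 without EtOH 1 or without EtOH 2, 3 without Tamoxifen 2 and 6 after the GC correction. The calls of CASP4 and GSDMD were lost when either Tamoxifen library was left out.

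Immediate early genes and AP-1 factors, which respond to growth factor and stress signals within minutes, rose in 13 of 29 tested members and 1 fell, against 2.54% higher and 3.62% lower over all tested genes. Of the 33 listed, 4 were below 1 RPKM. FOSB, a subunit of AP-1, went from 9.12 and 13.3 to 25.2 and 33.7 RPKM (log2 difference 1.33, SE 0.18, adjusted p = 0.0123). ATF3, a stress-induced factor, went from 6.45 and 7.73 to 13 and 18.3 RPKM (1.03, SE 0.15, adjusted p = 0.0141), and the nuclear receptor NR4A1 from 7.44 and 6.49 to 10.9 and 14.8 RPKM (0.78, SE 0.13, adjusted p = 0.0227). Tamoxifen 2 was the higher library in each, and the groups did not overlap. The other called-higher members were DUSP4, JUN, FOS, CYR61, IER3, EGR1, JUND, DUSP1, DUSP6 and ZFP36, with differences of 0.30 to 0.50. KLF4, a factor of epithelial differentiation on the same list, fell from 71.7 and 71.7 to 47.5 and 48.8 RPKM (-0.57, SE 0.06, adjusted p = 0.0058). The list's median GC content was 55.5%, and after the GC correction 6 members were called higher. The count was 7 without Tamoxifen 1, 4 without Tamoxifen 2 and 3 with the short RNA rows kept.

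Squamous differentiation genes fell. Of 63 listed cornified envelope and epidermal differentiation genes, 61 were in the table, 41 of them below 1 RPKM. Of the 20 tested, 12 were called lower and 0 higher, against 3.62% of all tested genes called lower. Their median log2 difference was -0.46, and for 16 of the 20 both Tamoxifen libraries lay below both EtOH libraries, against 23.4% of all genes.

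Promoters of 4 called members are shown with the AP-1 letters TGANTCA, since AP-1 sites are known in genes of this differentiation programme. The letters read the same on both strands. They were present in 10 of the 16 tested members with an entry (62.5%) and in 5 of the 10 called ones (50%). Of all tested genes with an entry, 5.38% held them. Among interferon-stimulated genes with an entry the share was 15% of the tested and 27.3% of the called ones. Of the immediate early genes, 0 of 20 held them. Capitals mark the match.
KRTDAP, chr7:30787794-30787860, plus strand: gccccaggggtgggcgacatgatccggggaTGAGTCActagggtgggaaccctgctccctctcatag
RPTN, chr3:93393573-93393639, plus strand: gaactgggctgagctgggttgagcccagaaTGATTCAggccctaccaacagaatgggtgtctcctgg
CRNN, chr3:93144663-93144729, plus strand: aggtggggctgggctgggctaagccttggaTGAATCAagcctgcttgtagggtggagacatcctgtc
SBSN, chr7:30751322-30751388, plus strand: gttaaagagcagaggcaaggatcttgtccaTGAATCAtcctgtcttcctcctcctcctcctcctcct
These windows are again RefSeq, build GRCm38.p6, and each holds 1 match. As above, a match describes the letters and is not evidence of binding. A link between AP-1 factors and these falls was not tested.

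KRTDAP, a secreted protein of differentiating keratinocytes, was at 7.61 and 9.12 RPKM with EtOH and at 3.66 and 2.73 RPKM with Tamoxifen (-1.16, SE 0.12, adjusted p = 0.00671). RPTN, repetin, a precursor of the cornified envelope, went from 1.89 and 2.37 to 0.530 and 0.369 RPKM (-1.11, SE 0.11, adjusted p = 0.0058). TMEM45A, a membrane protein of keratinizing cells, went from 10.3 and 9.84 to 5.41 and 3.38 RPKM (-1.06, SE 0.16, adjusted p = 0.0157). Each of these lay lower in both Tamoxifen libraries, which lay furthest apart in TMEM45A. SPRR2J-PS, a pseudogene whose reads may come from its functional relatives, was at 7.42 and 4.56 against 2.78 and 2.56 RPKM. The cornified envelope members CRNN, DMKN, SBSN and the cross-linking enzyme TGM1 were also called. CRNN was at 65.6 and 52.6 RPKM with EtOH and at 33.5 and 33.5 with Tamoxifen, DMKN at 48.6 and 51.5 against 28.6 and 24.8, SBSN at 33.1 and 34.3 against 23.9 and 22.3, and TGM1 at 9.84 and 10.0 against 5.79 and 6.09 (named after their values were seen). The list's median GC content was 51.6%, and 10 members were called lower after the GC correction. Without Tamoxifen 2 the count was 7, and with the short RNA rows kept it was 7.

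The list of suprabasal and hair keratins holds filament proteins, mostly of cells above the basal layer, but also KRT7 and KRT20 of other epithelia. Hair keratins such as KRT31, KRT36 and KRT75 lay below 1 RPKM. Of the 11 tested members, 5 fell and 0 rose, against 3.62% lower over all tested genes. All 11 differences were below 0, with a median of -0.51 against 0.04. KRT13, a keratin of non-cornifying stratified epithelium, went from 61.3 and 59.5 to 21.9 and 18.4 RPKM (-1.54, SE 0.09, adjusted p = 0.000841). Its partner KRT4, among the most abundant called genes, went from 1063 and 1017 to 667 and 610 RPKM (-0.70, SE 0.08, adjusted p = 0.00747). KRT16, a keratin of stressed epithelium, went from 51.2 and 50.2 to 27.0 and 23.4 RPKM (-0.98, SE 0.08, adjusted p = 0.00363). In these 3 genes the EtOH libraries nearly coincided and the Tamoxifen libraries lay well below them. KRT78 and KRT20 were the other called members. KRT10 was at 12.3 and 13.8 against 9.93 and 6.74 RPKM (adjusted p = 0.0601), KRT1 at 2.14 and 2.21 against 1.51 and 0.983 (adjusted p = 0.057) and KRT79 at 1.64 and 1.93 against 1.27 and 0.942 (adjusted p = 0.0756). These 3 did not pass the threshold. KRT7, a keratin of simple epithelium, stood at 1407 and 1370 RPKM with EtOH and at 1329 and 1384 with Tamoxifen. KRT23 and KRT80 were not called either. The count was 8 without EtOH 1, 3 without Tamoxifen 2, 3 with the short RNA rows kept and 5 after the GC correction.

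**Figure D2:**
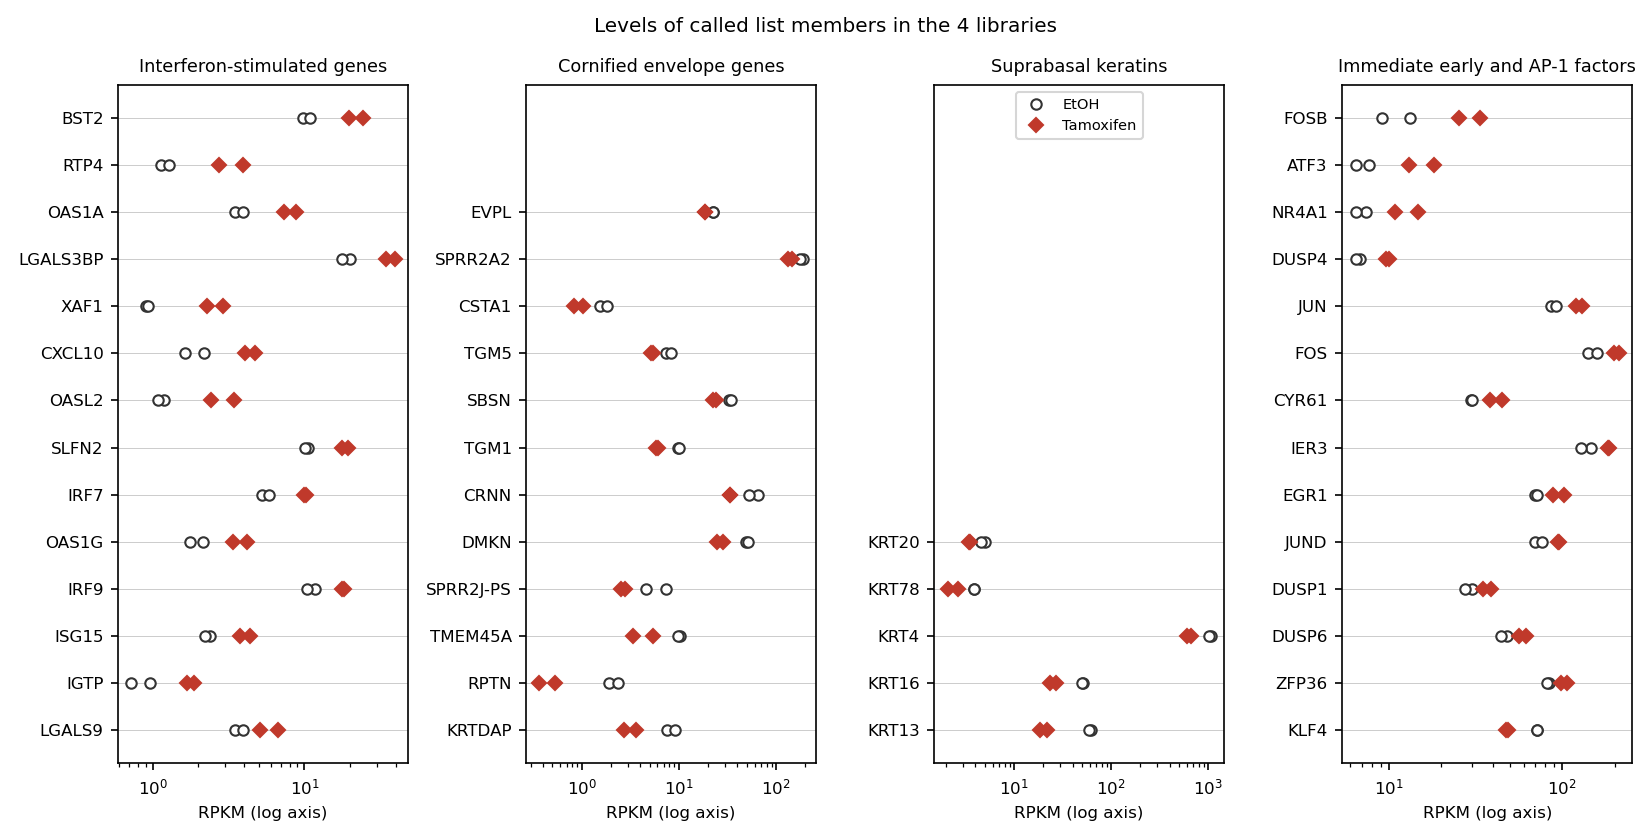
RPKM on a log axis of called members of 4 gene lists in each library, with open circles for the 2 EtOH libraries and filled diamonds for the 2 Tamoxifen libraries; of the interferon-stimulated genes the 14 with the largest differences are drawn. Diamonds lie to the right of the circles for every interferon-stimulated gene drawn and for the immediate early genes other than KLF4, and to the left for the cornified envelope genes and keratins.

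Some basal keratins and cell junction genes fell as well. Of 28 tested basal epithelial genes, 4 fell and 1 rose, and of 26 desmosome and tight junction genes 3 fell and 1 rose, against 3.62% lower and 2.54% higher over all tested genes. KRT14 fell from 872 and 812 to 601 and 600 RPKM (-0.49, SE 0.07, adjusted p = 0.0157), KRT6A from 608 and 661 to 448 and 424, KRT6B from 146 and 158 to 110 and 106, and KRT15 from 2107 and 2417 to 1734 and 1670 RPKM (adjusted p = 0.0489). KRT5, the partner of KRT14, was at 2046 and 2193 against 1740.5 and 1688 RPKM and did not pass (adjusted p = 0.0678). KRT6A and KRT6B are close copies, and their reads may be shared. NGFR, the low-affinity neurotrophin receptor, rose from 7.39 and 7.42 to 10.9 and 12 RPKM (0.56, SE 0.07, adjusted p = 0.00946). DSG3, the desmosomal cadherin of stratified epithelium, fell from 27.6 and 26.7 to 12.9 and 11.7 RPKM (-1.08, SE 0.07, adjusted p = 0.00115). The gap junction protein GJA1 and the cadherin DSC3 were the other members that fell, and the claudin CLDN4 rose from 570 and 532 to 701 and 692 RPKM. With the GC correction the basal list held 1 rise and 5 falls, and the junction list 0 rises and 2 falls. Without Tamoxifen 2 the basal list held 0 falls and the junction list 1, and without EtOH 2 they held 9 and 7.

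LY6-domain proteins, serpins and S100 proteins, families expressed in stratified and mucosal epithelium, held several of the largest falls. The counts that follow stand beside 3.62% of all tested genes called lower and 2.54% higher. SLURP1, a secreted ligand of nicotinic receptors, went from 553 and 534 to 236 and 200 RPKM (-1.32, SE 0.09, adjusted p = 0.00182). LY6G6C went from 9.63 and 10.3 to 3.83 and 3.67 RPKM (-1.21, SE 0.07, adjusted p = 0.000841), and LYPD2 from 6.20 and 7.04 to 4.21 and 3.37 RPKM. The LY6 family was split. Of 16 tested members 5 fell and 4 rose, among them LY6I, from 3.57 and 4.91 to 8.07 and 7.33 RPKM (0.74, SE 0.12, adjusted p = 0.0213), and LY6A, a stem and progenitor marker of mouse prostate, from 1275 and 1367 to 1702 and 1689 RPKM (0.36, adjusted p = 0.0423). LY6C1 and LY6C2, also called higher, are close copies of each other, so their reads may be split. The LY6 list held 1 rise and 6 falls after the GC correction, and the LY6A call was lost. Of 13 tested S100 proteins 3 fell, and 3 fell after the GC correction. S100A9, which pairs with S100A8 as calprotectin, fell from 12.1 and 17 to 4.66 and 4.14 RPKM (-1.51, SE 0.14, adjusted p = 0.00499). S100A8 was at 3.04 and 1.29 with EtOH and at 1.30 and 1.26 with Tamoxifen, so its high value rested on 1 library. Of 7 tested clade B serpins 2 fell, SERPINB11 from 10.0 and 11.5 to 4.76 and 4.41 RPKM (-1.07, SE 0.08, adjusted p = 0.00313) and SERPINB5, known as maspin, from 80.9 and 77.4 to 61.3 and 56.2 RPKM. The SERPINB5 call was lost after the GC correction. Without Tamoxifen 2 the LY6 list held 1 rise and 3 falls and the serpins 1 fall, and without EtOH 2, 7 S100 proteins fell.

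**Figure D3:**
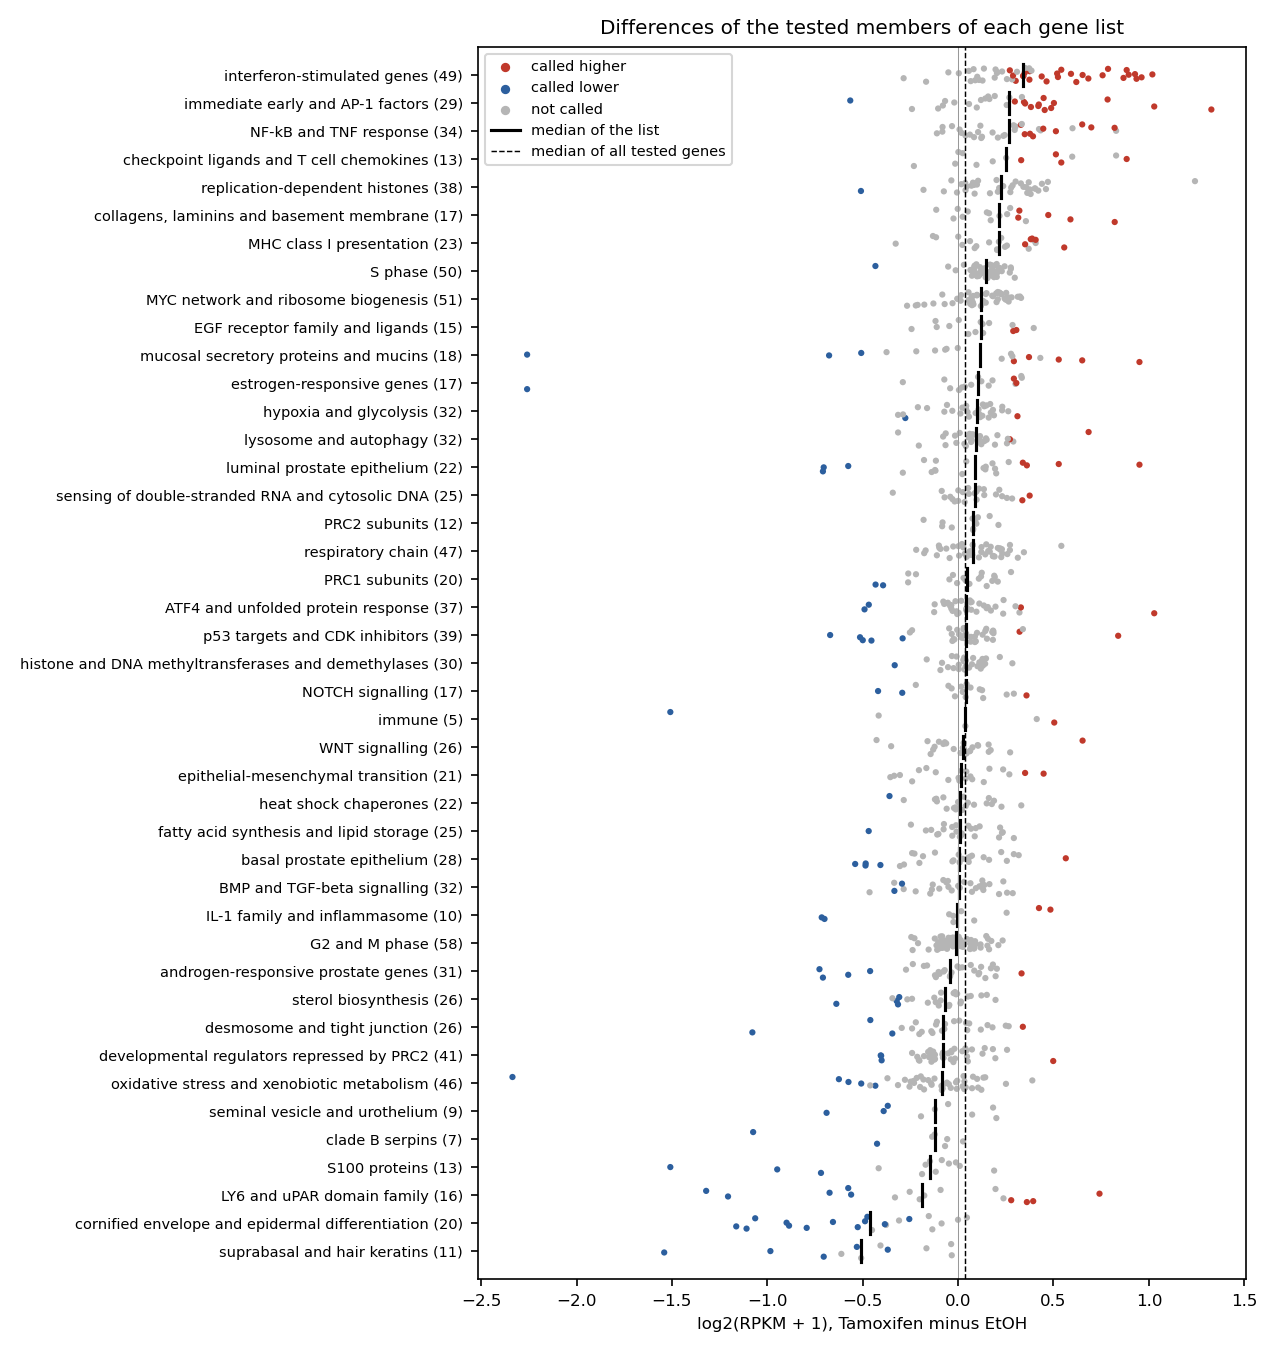
Log2 difference (Tamoxifen minus EtOH, log2(RPKM + 1) scale) of every tested member of the gene lists with at least 5 tested members, with the number tested in parentheses, the list median as a vertical bar and the median of all genes (0.04) as a dashed line. Interferon-stimulated (0.34) and immediate early genes (0.27) have the highest list medians, and the keratins (-0.51) and cornified envelope genes (-0.46) the lowest.

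Luminal and androgen-responsive genes split. Of 31 tested androgen-responsive prostate genes, 4 fell and 1 rose, beside 3.62% and 2.54% of all tested genes. PSCA, a surface antigen of prostate, fell from 662 and 597 to 451 and 394 RPKM (-0.58, SE 0.09, adjusted p = 0.0196), and HPGD, which degrades prostaglandins, from 5.93 and 6.73 to 3.79 and 3.08 RPKM. The elongation factor ELL2 fell as well, from 9.66 and 9.31 to 6.77 and 6.47 RPKM. CLU, clusterin, a secreted chaperone on the luminal list, rose from 442 and 357 to 769 and 770 RPKM (0.95, SE 0.10, adjusted p = 0.00733). In the luminal list 4 of 22 tested members rose and 3 fell. With the GC correction this list held 2 rises and 3 falls, and the androgen list 1 rise and 4 falls. The androgen list held 2 falls without Tamoxifen 2, and the luminal list 2 rises and 3 falls without Tamoxifen 1.

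TFF1, the trefoil peptide of mucosal secretions and an estrogen-responsive gene, had the smallest p of all genes. It was at 166 and 174 RPKM with EtOH and at 37.4 and 32.1 RPKM with Tamoxifen (-2.26, SE 0.08, adjusted p = 0.000219). Tamoxifen binds the estrogen receptor, and whether this gene answered the compound or the deletion cannot be told apart. The estrogen list went both ways. Of 17 tested, AREG, a ligand of the EGF receptor, rose from 95.7 and 92.5 to 116 and 117 RPKM, LTF, lactoferrin, from 95.7 and 98.1 to 119 and 118 RPKM, and TFF1 alone fell. AGR2, which folds secreted mucins, fell from 98.4 and 106 to 63.3 and 64.0 RPKM (-0.68, SE 0.06, adjusted p = 0.0053). The calls of AREG and LTF were lost when either Tamoxifen library was left out and after the GC correction, whereas TFF1 was called in 15 of 16 alternatives (not with no filter, adjusted p = 0.104).

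Among the other large changes, several came from genes whose reads are hard to place. APOO-PS, a pseudogene, was listed at or near 0 with EtOH and at 8.32 and 12.3 RPKM with Tamoxifen, and BC002163 at 0.00399 and 0.0819 against 4.73 and 3.47 RPKM. RPL26, a ribosomal protein with many processed copies, was at 1435 and 181 RPKM in EtOH 1 and EtOH 2 and at 19.7 and 15.1 with Tamoxifen (adjusted p = 0.0222). The EtOH libraries of RPL26 differed more from each other than most genes did between groups. These 3 are uncertain. MT4, a metallothionein of stratified squamous epithelium, fell from 4.73 and 5.71 to 0 and 0.509 RPKM (-2.34, SE 0.19, adjusted p = 0.00378). PPBP, a chemokine best known from platelets, fell from 43.1 and 36.7 to 13.4 and 12.4 RPKM (-1.55, SE 0.09, adjusted p = 0.000841). FAM25C fell from 9.74 and 10.7 to 3.89 and 2.77 RPKM, AKR1B3, aldose reductase, from 8.60 and 7.17 to 3.02 and 1.95 RPKM, and KLRA33 from 4.91 and 5.66 to 0.623 and 0.960 RPKM. KLRA33 belongs to a family of close copies known from natural killer cells. MGP, matrix Gla protein, rose from 1.31 and 2.38 to 4.78 and 6.15 RPKM (1.20, SE 0.18, adjusted p = 0.0164), and HP, haptoglobin, from 2.03 and 2.12 to 4.70 and 4.94 RPKM (0.92, SE 0.07, adjusted p = 0.00363).

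**Figure D4:**
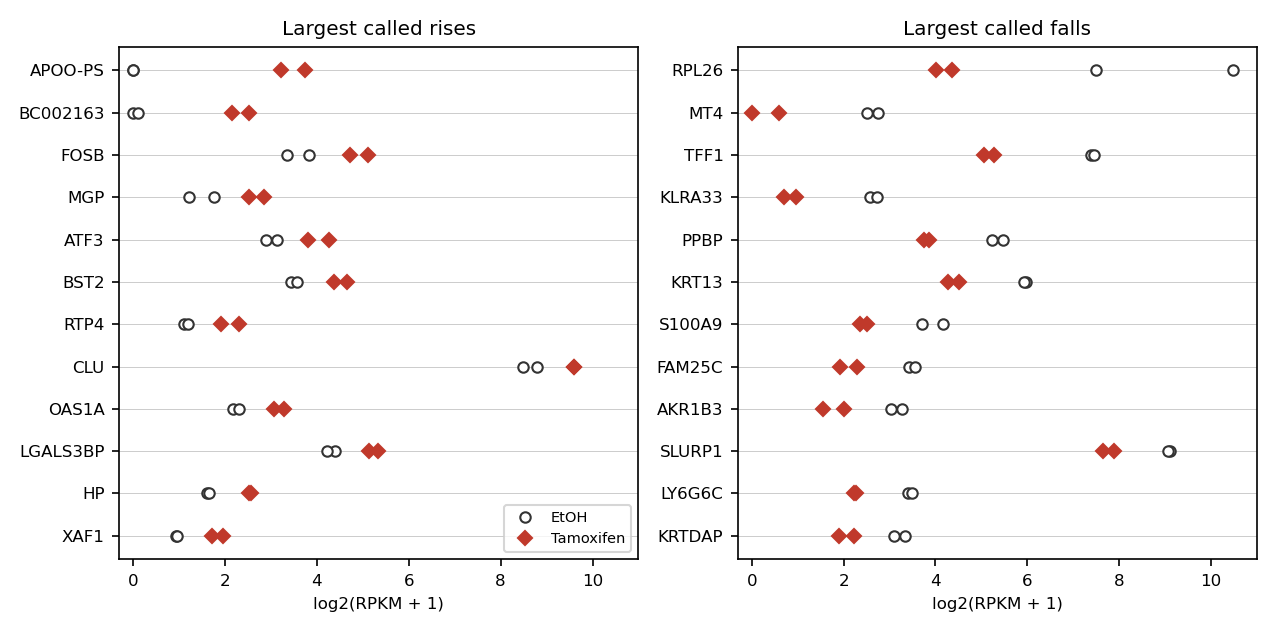
log2(RPKM + 1) in each library of the 12 called genes with the largest rises (left) and the 12 with the largest falls (right), with open circles for EtOH and filled diamonds for Tamoxifen. Only called genes whose groups do not overlap were eligible, so the groups are separate for all 24 genes by selection. The EtOH circles of RPL26 lie far apart (1435 and 181 RPKM).

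Basement membrane genes rose in 5 of 17 tested members and 0 fell, against 2.54% higher over all tested genes, with a median log2 difference of 0.22 against 0.04. COL4A1, the main collagen of basement membrane, rose from 6.85 and 7.74 to 12.3 and 15.1 RPKM (0.82, SE 0.10, adjusted p = 0.0104). COL7A1, the anchoring fibril collagen, rose from 2.41 and 2.46 to 4.45 and 3.90 RPKM (0.59, SE 0.08, adjusted p = 0.0124), the laminin chain LAMB1 from 3.99 and 4.04 to 5.74 and 6.19 RPKM, and AGRN, a basement membrane proteoglycan, from 27.5 and 30.02 to 36.8 and 35.6 RPKM. The list's median GC content was 57.0%, and 3 members were called after the GC correction. Without Tamoxifen 1 there were 3 and without Tamoxifen 2 there were 2, against 10 without EtOH 2.

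For growth and metabolic lists the shares over all tested genes were again 2.54% higher and 3.62% lower. Of 50 tested S phase genes 0 rose and 1, CCNE2, fell, from 5.29 and 4.81 to 3.29 and 3.67 RPKM. The CCNE2 call was lost after the GC correction. Of 58 G2 and M phase genes, 51 of the MYC network and 47 of the respiratory chain, 0 were called. TOP2A, which untangles DNA in dividing cells, was at 76.2 and 84.6 against 76.9 and 85.9 RPKM, and NPM1, a nucleolar MYC target, at 768 and 718 against 659 and 699 RPKM. Without EtOH 2, however, 18 S phase genes, 7 of G2 and M phase, 20 of the MYC network, 21 of the respiratory chain and 21 of 38 tested replication-dependent histone genes were called higher, where 1811 genes were called higher in all. Of 26 tested sterol synthesis genes 4 fell: IDI1 from 87.0 and 95.7 to 56.1 and 60.5 RPKM (-0.64, SE 0.07, adjusted p = 0.00882), CYP51 from 82.8 and 84.5 to 64.1 and 69.4, MVD from 25.9 and 28.3 to 21 and 22.1, and SC5D from 43.1 and 42.9 to 35.2 and 33.8 RPKM. The sterol count was 1 without Tamoxifen 1 or without Tamoxifen 2, and 8 without EtOH 1. With the GC correction 3 sterol genes fell. Of 39 tested p53 targets and CDK inhibitors 2 rose and 5 fell, and after the GC correction 1 rose and 3 fell. GDF15, a stress-induced cytokine, rose from 11.6 and 10.6 to 19.5 and 21.7 RPKM (0.84, SE 0.08, adjusted p = 0.00473). TRP53INP1, a p53-induced nuclear protein, fell from 42.2 and 42.5 to 28.8 and 23.9 RPKM (-0.67, SE 0.09, adjusted p = 0.0122), PMAIP1, the death gene also called Noxa, from 6.16 and 4.95 to 3.70 and 3.45, and the CDK inhibitor CDKN1C from 4.98 and 4.48 to 2.90 and 3.21 RPKM. The p53 list held 2 falls without Tamoxifen 1 and 2 without Tamoxifen 2.

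Oxidative stress and xenobiotic metabolism genes, taken as 1 list, fell in 5 of 46 tested members and 0 rose, against 3.62% lower over all tested genes. The falls included the metallothionein MT4, given above. With the GC correction 6 fell and 0 rose. GSTO1, a glutathione transferase and one of the most abundant called genes, fell from 1201 and 1211 to 852 and 844 RPKM (-0.51, SE 0.07, adjusted p = 0.0123). CYP2F2, a cytochrome of airway and other epithelia, fell from 206 and 217 to 147 and 137 RPKM (-0.57, SE 0.07, adjusted p = 0.00946), and ALDH3B2 from 6.81 and 6.27 to 4.31 and 3.50 RPKM. Signalling lists had isolated calls. WIF1, a secreted WNT inhibitor, rose from 4.46 and 4.74 to 7.59 and 8.02 RPKM (0.65, SE 0.07, adjusted p = 0.0058). In the NOTCH list the target genes HES1 and NRARP fell, from 126 and 125 to 105 and 100 RPKM and from 38.2 and 36.3 to 27.7 and 27.6 RPKM, and the ligand DLL1 rose from 5.89 and 6.39 to 7.68 and 8.63 RPKM. The DLL1 call was lost after the GC correction, where the list held 2 falls. The NOTCH calls were lost when either Tamoxifen library was left out, and the xenobiotic count was 1 without Tamoxifen 2, 12 without EtOH 1 and 11 without EtOH 2.

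The libraries held markers of luminal and basal prostate epithelium. Of 10 luminal markers 9 were tested, and PBSN, probasin, was listed at 0 in all 4 libraries. A listed 0 in this table may be a failed estimate: HMGCS1, a sterol synthesis gene that cells in general use, was also listed at 0 in all 4. Luminal KRT8 was at 169, 156, 169 and 160 RPKM in EtOH 1, EtOH 2, Tamoxifen 1 and Tamoxifen 2, KRT18 at 272, 240, 298 and 289, and EPCAM at 217, 204, 245 and 236. The 6 basal markers summed to 5259 and 5649 RPKM with EtOH and to 4298 and 4180 with Tamoxifen, and the luminal markers to 4504 and 4164 against 3907 and 3712. Both sums were lower with Tamoxifen, and in bulk RNA fewer cells of a type and less RNA per cell cannot be told apart. Of the 7 immune markers 5, among them CD3E and CSF1R, were listed at 0 in every library, PTPRC reached at most 0.00483 RPKM, and the sum of 11.6 to 14.3 RPKM came almost wholly from CD68. Fibroblast and smooth muscle markers summed to 2.79 to 4.25 RPKM with COL3A1 and DES listed at 0, endothelial markers to at most 0.237 and neuroendocrine markers to at most 0.433. On the wider immune list, of which 5 genes were tested, CD14, a receptor of myeloid cells that some epithelia also express, rose from 36.6 and 36 to 50.7 and 53.2 RPKM (0.50, SE 0.06, adjusted p = 0.00919), and S100A9 fell as given above. CD14 thus rose with the interferon-stimulated and chemokine genes, and the part of leukocytes in those rises was not tested. The 3 urothelial markers summed to 18.2 and 19.8 RPKM with EtOH and to 15.5 and 16.6 with Tamoxifen, where UPK3A fell from 8.24 and 11.3 to 4.97 and 6.30 RPKM. The part of a shift in luminal or basal cells in the falls of keratins was not tested.

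The same genes were set beside the chemical experiment, in which 3 libraries of 1 µM DZNep, an inhibitor of S-adenosylhomocysteine hydrolase used in the series against EZH2, faced 3 of DMSO. The experiments share no libraries, and each difference was taken within its own table. In 1 limma fit over all 10 libraries, the difference between the Tamoxifen and DZNep effects was called for 2354 of 10913 genes (21.6%), and for 466 of the 678 Tamoxifen calls among them. That total was 1525 without EtOH 1, 1506 without Tamoxifen 1 and 1130 without Tamoxifen 2.

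Several keratins moved in opposite directions. KRT13 fell by 1.54 with Tamoxifen and rose by 1.51 with DZNep, a difference of -3.05 (adjusted p = 9.8e-09). KRT16 stood at -0.98 against 0.88 and KRT4 at -0.70 against 0.48, and the difference was called for 9 of the 11 tested keratins, all below 0. KRT1, at -0.51 with Tamoxifen, was at 1.41 with DZNep, and KRT10 at -0.61 against 1.59. For cornified envelope genes the difference was called in 10 of 20, all below 0, KRTDAP standing at -1.16 against 1.15, while with DZNep 7 rose and 5 fell. PPBP, at -1.55 against 1.78, and TFF1, at -2.26 against 0.84, also went opposite ways. So did KRT14, at -0.49 against 0.85.

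Some immediate early genes were also opposite, and others were not. FOSB stood at 1.33 with Tamoxifen and -1.26 with DZNep (difference 2.59, adjusted p = 2.0e-05) and ATF3 at 1.03 against -0.80. Of 29 tested members the difference was called above 0 in 13 and below 0 in 2, and with DZNep alone 2 members rose and 11 fell. IER3 stood at 0.42 with Tamoxifen and 0.29 with DZNep, and DUSP4 at 0.50 and 0.15, and their difference was not called. Of the 49 interferon-stimulated genes, 26 were called higher with Tamoxifen and 45 with DZNep, and 0 were called lower in either. The difference between the effects was called below 0 in 38 and above 0 in 0, with list medians of 0.34 for Tamoxifen and 1.05 for DZNep. ISG15 stood at 0.62 with Tamoxifen and 2.86 with DZNep (difference -2.24, adjusted p = 3.8e-08), RTP4 at 0.96 against 3.03, CXCL10 at 0.88 against 2.62 and BST2 at 1.02 against 1.67. Among genes not distinguished between the experiments were CLU (0.95 and 0.93, difference 0.03, adjusted p = 0.90), GPNMB, a lysosomal glycoprotein (0.68 and 0.60), and MGP (1.20 and 1.42). EZH2 was at 0.08 with Tamoxifen and -0.28 with DZNep (difference 0.36, adjusted p = 0.042).

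**Figure D5:**
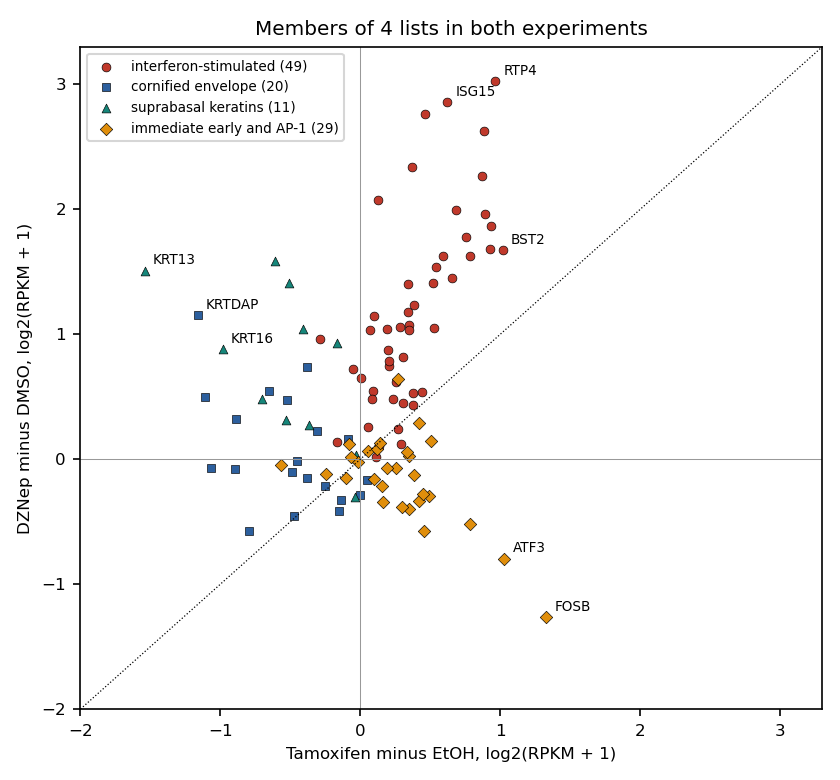
Log2 difference with Tamoxifen (minus EtOH) against the difference with DZNep (minus DMSO) for the tested members of 4 gene lists, with the number drawn in parentheses and a dotted line of equal change. Interferon-stimulated genes lie mostly above the line (ISG15 at 0.62 and 2.86), the keratins lie mostly at upper left (KRT13 at -1.54 and 1.51), and FOSB (1.33 and -1.26) and ATF3 lie at lower right.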

How the data were processed

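RNA was measured in 4 libraries of Tamoxifen and EtOH organoids, with 6 libraries of DZNep and DMSO for comparison. Per the labels' protocols, 500 ng of total RNA per sample entered stranded Illumina TruSeq mRNA libraries. The submitters' processing notes name bcl2fastq 2.18, STAR and Cufflinks with build mm9, without versions for the last 2. The authors deposited log2 values, read here from their floor of 0 and range as log2(RPKM + 1), in 1 table per experiment. The treatment of strand and of reads that align more than once is not stated in the labels used here. The files hold no counts, so sequencing depth is unknown and no count model or counting interval was used.

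Values were turned back into RPKM by raising 2 to the value and subtracting 1. Of 24043 rows, 27 with date symbols and 109 MIR, SNORA or SNORD rows of at least 1 RPKM were left out, and 12893 lay below 1 RPKM. The test on the log2(RPKM + 1) values was limma 3.58.1 under R 4.3.3 (moderated two-sided test with a mean trend, 2 residual degrees of freedom), with Benjamini-Hochberg adjustment over all tested genes, and genes were called at an adjusted p under 0.05. All adjusted p-values are from limma. The difference from DZNep was 1 limma contrast over 10 libraries. Members and the 46 gene lists were chosen with earlier results of these data known. Named genes were EZH2 and the PRC2 subunits, tissue markers, lists of up to 12 tested members and the 5 most abundant called genes. The 12 largest rises and 12 largest falls were taken from called genes whose groups do not overlap. Up to 4 called members per list were named, or the 2 most abundant where none was called. For the difference from DZNep, the 4 genes of smallest p were named. Others are said to be named after their values were seen. Replicate numbers were not taken as pairs, since the labels do not tie them. GC content came from GENCODE M21 transcripts, for 95.5% of tested genes. Alternatives were quantile normalization, a replicate block, an offset of 0.1, robust variances, a filter of 5 RPKM or none, a joint fit, trimmed mean scaling, a constant variance prior, keeping short RNA rows, leaving out each library and, added after seeing the data, a GC correction with and without the block. Some members of these lists are not reported here. The procedure was tested on simulated data. Plots were made in Python 3.11.15 (matplotlib 3.10.9).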

Additional observations from a re-analysis of the deposited data

Results flagged for a closer look

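The effects of Tamoxifen and DZNep differed by the limma contrast of the differences for these genes. KRT13, a suprabasal keratin, differed by -3.05 on the log2 scale, and the chemokines PPBP by -3.33 and CXCL3 by -1.68, all falling with Tamoxifen and rising with DZNep. CXCL3 was at 14.7 and 16.2 RPKM with EtOH and at 11 and 11.9 with Tamoxifen. ISG15 differed by -2.24, rising in both. By list, the difference was called for 38 interferon-stimulated genes, 10 cornified envelope genes, 9 keratins and 15 immediate early genes, beside 21.6% of all genes in that fit. Treatment, vehicle, number of libraries and table differ between the experiments together, so what sets the effects apart cannot be told apart.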

How the results depend on the processing

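Of the gene-level results under alternatives, 2262 stayed called in the same direction, or stayed uncalled and moved by at most the SE of the main fit. Values that stayed uncalled could change sign. Another 345 lost the call, 49 gained it and 83 uncalled values moved by more than that SE. Of the called values of named genes, 0 changed sign. Among all calls, 1 changed sign with the GC correction. The 679 calls (280 higher, 399 lower) became 0 in each direction with no filter, 1159 (540 and 619) in the joint fit, 230 (77 and 153) with short RNA rows kept, 326 (121 and 205) with the GC correction, 2547 (1480 and 1067) with a replicate block and 1207 (560 and 647) with the GC correction and replicate block. The block rests on a shared number only: the 2 differences between same-numbered libraries correlated at 0.27 across genes. Leaving out 1 library gave 137 to 2823 calls, 56 to 1811 higher and 81 to 1012 lower; where a group has 1 library, it is assumed to vary like the other group. With no filter, the interferon (26), cornified (12), keratin (5) and immediate early (13) counts were 0; with short RNA rows kept they were 12, 7, 3 and 3. The keratin count was 8 with the replicate block, in the joint fit and with both corrections, and the immediate early count was 6 with the GC correction. Without 1 library these 4 counts ranged from 11 to 31, 7 to 13, 3 to 8 and 4 to 17. The EZH2 difference ranged from -0.058 to 0.21, and the count of genes that differed from DZNep from 1130 to 2150. Other settings, among them the offset, a filter of 5 RPKM, scaling, a constant variance prior and robust variances, kept these counts within 1.5 times. Depth limits cannot be given, since no counts were used.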
